A study of Mus musculus with 2 samples.

Results

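The genes of the mouse major histocompatibility complex (MHC) and of its antigen presentation machinery were examined in the regenerating liver of mice that lack an allele of miR-182-5p (KO) and of wild-type mice (WT). Members were all listed genes whose symbol starts with H2- together with *B2m*, *Tap1*, *Tap2*, *Tapbp*, *Cd74*, *Ciita* and *Nlrc5*, and 3 H2 names that end in -ps were left out. This gave 48 genes of the 34745 listed, of which 44 lie on chromosome 17. They comprise 29 class I heavy chain genes, 4 genes of the class I light chain and of peptide loading, and 11 class II chain genes. The others are the class II chaperone *Cd74*, the regulators *Ciita* and *Nlrc5*, and *H2-Ke6*. *H2-Ke6* carries an H2 name from its position but encodes a hydroxysteroid dehydrogenase. GENCODE M21 annotates 7 of the 48 as pseudogenes of some type. These are *H2-Bl*, *H2-K2*, *H2-Q3*, *H2-Q5* and *H2-T10* in class I, and *H2-Pa* and *H2-Pb* in class II. Of the 7, 4 had enough counts to be compared below.

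Poly(A) RNA had been sequenced from the liver of male mice, 8 to 10 weeks old, taken at day 3 after 2/3 partial hepatectomy (PH), an operation that both groups underwent. The KO mice were heterozygous, with the knockout of miR-182-5p on a single allele, and the control mice were of the wild type. Each genotype is represented by 1 library, and how many mice went into a library is not stated, so no difference below has a replicate check and no p-value is given. Total counts were 13247497 for KO and 13163348 for WT. *Mir182* has no row among the listed genes, and the labels therefore could not be checked on the target of the knockout.

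MHC class I molecules are made by nearly all cells and carry peptides from proteins made inside the cell to CD8 T cells. The heavy chain pairs with beta-2 microglobulin, and the peptide is cut by the proteasome, moved into the endoplasmic reticulum by the TAP transporter and loaded with the help of tapasin. Class II molecules are made by macrophages, dendritic cells and B cells, where the invariant chain fills their groove until H2-DM exchanges it for a peptide from the endosome. Interferons raise class I genes through *Nlrc5* and IRF factors, and class II genes through *Ciita*.

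The promoter letters sought here differ between the members. The next 6 lines show the same stretch before the start of 6 class I heavy chain genes. Capitals mark a form of the interferon-stimulated response element (GAANNGAAA, read on the other strand as TTTCACTTC) and the NF-kB site of *H2-K1* (GGGGATTCCC). All 6 hold the first, and *H2-Q4* and *H2-Q10* do not hold the second in these letters.
H2-K1: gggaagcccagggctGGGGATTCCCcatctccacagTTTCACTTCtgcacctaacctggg
H2-D1: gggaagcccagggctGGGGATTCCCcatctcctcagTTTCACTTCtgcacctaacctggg
H2-Q6: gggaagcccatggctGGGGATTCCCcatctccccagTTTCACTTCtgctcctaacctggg
H2-Q7: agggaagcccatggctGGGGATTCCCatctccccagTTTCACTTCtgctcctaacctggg
H2-Q4: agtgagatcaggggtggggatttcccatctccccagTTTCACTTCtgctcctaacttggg
H2-Q10: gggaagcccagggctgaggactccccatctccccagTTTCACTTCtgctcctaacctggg

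These stretches lie in RefSeq (GRCm38.p6) at chr17:34000414-34000473 on the minus strand for *H2-K1* and, on the plus strand, at chr17:35262908-35262967 for *H2-D1*, chr17:35424662-35424721 for *H2-Q6*, chr17:35439006-35439065 for *H2-Q7*, chr17:35379428-35379487 for *H2-Q4* and chr17:35469898-35469957 for *H2-Q10*. RefSeq promoters were found for 18 of the tested members. The 250 bases before the start were searched on both strands. The letters GAANNGAAA stood in 7 of 10 tested class I heavy chain genes and in 6.34% of all 27025 promoters. In all 7 they read TTTCACTTC, and the stretches shown above are similar copies, so the 7 are not independent. Other forms of the interferon element were not sought. The NF-kB letters were read from *H2-K1*, so it holds them in advance, and the stretches of *H2-D1*, *H2-Q6* and *H2-Q7* are close copies. They stood in 4 of the 10, *H2-K1* included, and in 0.0814% of all promoters. Neither GAANNGAAA nor the NF-kB letters stood in the 3 loading genes or the 4 class II chain genes with a RefSeq promoter. This does not show that these genes lack such elements, since other spellings and bases outside the window were not searched.

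The third set of letters is the Y box, TGATTGG, which the factor NF-Y binds in MHC promoters. It stood in 6 of 10 class I heavy chain promoters, in 3 of 4 class II chain promoters and in 7.65% of all promoters, again on either strand. The lines below show it in capitals for 3 class II genes and for *Tap1*, where the same 7 bases (chr17:34187334-34187340) lie between the RefSeq starts of *Tap1* and of the proteasome gene *Psmb9*, which is read in the opposite direction.
H2-DMb1: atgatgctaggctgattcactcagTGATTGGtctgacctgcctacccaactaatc
H2-Aa: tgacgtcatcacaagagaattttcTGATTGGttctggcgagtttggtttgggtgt
H2-Eb1: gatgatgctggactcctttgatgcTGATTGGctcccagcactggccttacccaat
Tap1: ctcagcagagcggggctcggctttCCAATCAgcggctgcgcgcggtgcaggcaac

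They lie at chr17:34153104-34153158 (plus strand), chr17:34287843-34287897 (minus strand), chr17:34305782-34305836 (plus strand) and chr17:34187310-34187364 (plus strand). The letters are a description of these windows, and no binding was measured. The miRNA that the knockout targets is shown with its seed, bases 2 to 8, in capitals, as RefSeq gives it at chr6:30165962-30165986 on the minus strand.
mmu-miR-182-5p: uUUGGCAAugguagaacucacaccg

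The 7 bases TTGCCAA that pair with this seed were sought in the longest annotated 3′ UTR of each gene. None of the 26 tested members with such a UTR held them, beside 13.4% of 12541 tested genes, and none held the 8-base form TTGCCAAA, beside 5.5%.

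Fold changes below are log2 ratios of KO over WT after scaling by TMM, a method that sets the typical gene to no change, with a prior count of 0.5. A gene was compared where its 2 counts added up to 10 or more, which held for 13561 genes and for 28 of the 48 members. The range after each value is the exact 95% binomial interval of its 2 counts. It covers counting error only, not the spread between mice. Where a pair of counts is given, that of KO comes first. The choice of scaling matters here, because mitochondrial protein genes held 51.7% of all counts in KO but 31.0% in WT. Scaling by total counts lowered log2 fold changes by about 0.60, and by less for genes with very few counts. The median of all tested genes under that scaling was -0.60. It turned 12 of the 28 members from above 0 to below 0.

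Few members differed by 2-fold. *Tap1* and *H2-Bl* were at least 2-fold higher in KO, 2 of 28 members beside 9.46% of all tested genes, and *H2-Q2* and *H2-DMa* were at least 2-fold lower, 2 of 28 beside 9.94%. The median of the 28 was 0.01, against 0.00 for all tested genes, with 14 members above 0 and 14 below. Under total counts only *Tap1* stayed 2-fold higher, beside 4.6% of all genes, and 7 members were 2-fold lower, beside 26.6%. The 7 were *H2-Q2*, *H2-Q1*, *H2-Q7*, *H2-M3*, *H2-DMa*, *H2-DMb1* and *Cd74*. These shares of members lie near those of all genes. The plot of member fold changes shows the intervals.

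**Figure D1:**
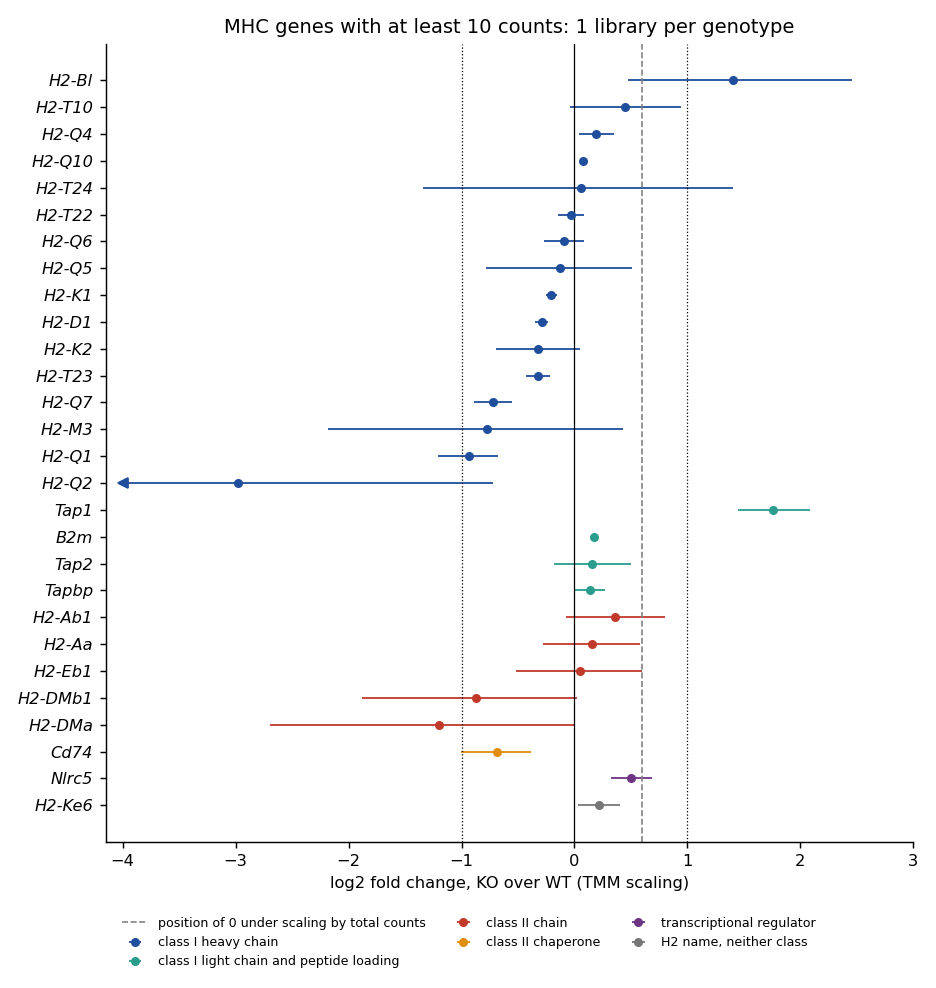
Log2 fold change of KO over WT for the 28 tested members, by role, with exact 95% counting intervals (1 library per genotype). Dotted lines mark 2-fold, the dashed line marks where 0 would lie under total counts, and the arrow marks an interval that runs on to -8.80. *Tap1* (1.76) stands apart from the other loading genes, which lie between 0.14 and 0.17.

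Of the members' counts, most fell on the class I heavy chains, while per length *B2m* was highest. *H2-Q10*, a class I molecule that hepatocytes secrete, had 24300 counts in KO and 34677 in WT, a log2 fold change of 0.08 (0.06 to 0.10), which was -0.52 under total counts. It took 65.6% of all class I heavy chain counts in KO (exact 95% interval 65.1 to 66.1) and 60.5% in WT (60.1 to 60.9). The classical molecules *H2-K1* and *H2-D1*, which present peptides to CD8 T cells, followed it. *H2-K1* had 4851 counts in KO and 8428 in WT (-0.20, -0.26 to -0.15). *H2-D1* had 3872 and 7132 (-0.29, -0.35 to -0.23). The ratio of *H2-Q10* to the sum of both, which no scaling moves, was 2.79 in KO and 2.23 in WT. Summed, the 29 heavy chain genes had 37029 counts in KO and 57311 in WT, a log2 fold change of -0.04 (-0.06 to -0.02), and without *H2-Q10* it was -0.24 (-0.27 to -0.21).

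The nonclassical heavy chains spread more widely. *H2-T23*, which encodes Qa-1, a ligand of receptors on NK cells, had 1182 counts in KO and 2228 in WT (-0.32, -0.43 to -0.22). *H2-T22*, a ligand of some gamma delta T cells, had 977 and 1506 (-0.03, -0.15 to 0.09), and its near copy *H2-T10* had 69 and 76 (0.45, -0.04 to 0.94, and -0.15 under total counts). *H2-Q7*, one of the genes of the Qa-2 molecule, had 400 counts in KO and 994 in WT (-0.72, -0.89 to -0.55). Its relative *H2-Q6* had 437 and 702 (-0.09, -0.27 to 0.08), and the ratio of *H2-Q7* to *H2-Q6* was 0.915 in KO and 1.42 in WT. *H2-Q4* had 603 and 795 (0.19, 0.04 to 0.35, and -0.41 under total counts).

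*H2-Q1* came just short of 2-fold, with 163 counts in KO and 471 in WT (-0.94, -1.20 to -0.68), and passed it under total counts (-1.54). The 2 heavy chain genes past 2-fold were low in both libraries. *H2-Q2* had 1 count in KO and 16 in WT (-2.98, -8.80 to -0.72). *H2-Bl*, annotated as a polymorphic pseudogene, had 27 counts in KO and 15 in WT (1.40, 0.48 to 2.46, and 0.82 under total counts). The others, *H2-K2* (95 and 179 counts, -0.32), *H2-M3* (8 and 21, -0.77), *H2-Q5* (34 and 56, -0.13) and *H2-T24* (9 and 13, 0.06, and -0.52 under total counts), had intervals that hold 0. *H2-M3* presents formylated peptides of bacteria and mitochondria, and *H2-K2* is annotated as a transcribed pseudogene. Over the 16 tested heavy chains the median was -0.17, with 5 above 0 and 11 below. Under total counts 1 was above 0 and 15 were below.

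The values of single class I genes are uncertain, because these genes are close copies. They also differ between mouse strains, and the H2 haplotype of the KO and WT mice is not in the labels, so its part in the class I values was not tested. Of the 16 tested heavy chains, 12 shared over 10% of the 51-base words of their longest transcript with other H2 genes, up to 35.0% for *H2-T22*. The coding sequences of *H2-Q5* and *H2-Q7* were 96.6% identical in alignment, those of *H2-T10* and *H2-T22* 96.3%, those of *H2-Q6* and *H2-Q7* 95.4% and those of *H2-D1* and *H2-K1* 91.1%. The following coding stretch, from GENCODE M21, is the same in *H2-K1*, *H2-D1*, *H2-Q6*, *H2-Q7*, *H2-T23* and *H2-T22*. It was picked as the window with the most pairs of genes identical, so it overstates their likeness. Over the whole coding sequence, *H2-K1* and *H2-T22* were 68.9% identical. A read that lies within this stretch does not name its gene. *H2-Q4* differs from the stretch at 1 base and *H2-Q10* at 2, in capitals.
H2-K1: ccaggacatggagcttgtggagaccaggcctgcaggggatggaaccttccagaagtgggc
H2-Q4: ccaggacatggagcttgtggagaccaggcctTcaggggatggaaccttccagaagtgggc
H2-Q10: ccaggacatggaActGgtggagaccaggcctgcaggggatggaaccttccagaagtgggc

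How the authors' counting treated reads with several matches is not given in the sources used here. Sums over similar genes depend less on that, but also on which genes are summed. *H2-Q4*, *H2-Q5*, *H2-Q6* and *H2-Q7* together had 1474 counts in KO and 2547 in WT (-0.20, -0.29 to -0.10). With *H2-Q10*, which holds 15.2% of the words of *H2-Q7*, the sum was 25774 and 37224 and the sign was the opposite (0.06, 0.04 to 0.09, and -0.54 under total counts). *H2-T10* with *H2-T22* had 1046 and 1582 (0.00, -0.12 to 0.11). *H2-Q1* with *H2-Q2*, which share 9.57% of the words of *H2-Q1*, had 164 and 487 (-0.98, -1.24 to -0.72). Of the words of *H2-Q4*, 15.6% recur in the overlapping gene Gm11131, which had 0 and 15 counts.

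Among the genes that complete and load class I molecules, only *Tap1* differed by 2-fold. *Tap1*, a subunit of the peptide transporter, lies at chr17:34187553-34197225 on the plus strand and had 268 counts in KO and 119 in WT, a log2 fold change of 1.76 (1.45 to 2.09), and 1.16 under total counts. Its partner *Tap2* had 126 and 170 (0.16, -0.18 to 0.50). *B2m*, the light chain, had 18025 and 24076 (0.17, 0.15 to 0.20), and *Tapbp*, which encodes tapasin, had 764 and 1046 (0.14, 0.00 to 0.28). The last 3 were below 0 under total counts, between -0.46 and -0.43.

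The ratios of *Tap1* to its partner and to its neighbour differed between the libraries, whatever the scaling. The ratio of *Tap1* to *Tap2* counts was 2.13 in KO and 0.7 in WT. *Psmb9*, a subunit of the immunoproteasome that starts close to *Tap1* on the other strand, had 71 counts in KO and 165 in WT (-0.62, -1.05 to -0.21). The ratio of *Tap1* to *Psmb9* was thus 3.77 in KO and 0.721 in WT, a log2 difference of 2.39 with a 95% interval of 1.88 to 2.90 for counting error. These ratios were chosen after the values of the genes were seen. In the authors' table, whose gene models reach farther than those RefSeq starts, the loci of *Tap1* and *Psmb9* overlap by 212 bases (chr17:34187553-34187764), where reads cannot be assigned without strand. Summed, they had 339 counts in KO and 284 in WT (0.85, 0.62 to 1.08). The other immunoproteasome subunits had 290 and 421 counts (*Psmb8*, 0.05, and -0.55 under total counts) and 390 and 456 (*Psmb10*, 0.37, and -0.23 under total counts).

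**Figure D2:**
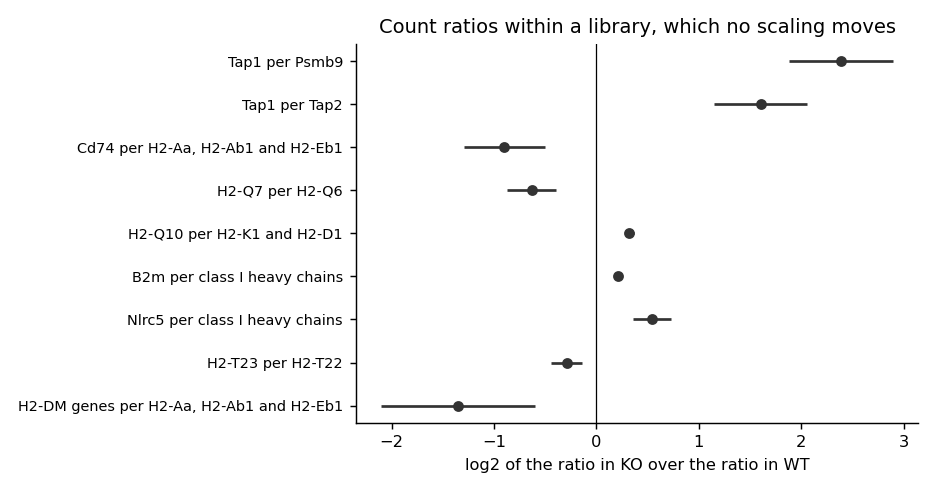
Log2 of a within-library count ratio in KO over the same ratio in WT, with 95% intervals for counting error (normal approximation on the log scale). Values right of 0 mean that the first gene stood higher against the second in KO. *Tap1* per *Psmb9* (2.39) and *Tap1* per *Tap2* (1.60) lie farthest from 0. The H2-DM genes per class II chains (-1.35) lie farthest below 0. None of these ratios was planned in advance.

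Class II genes were low in both libraries. Members of class II summed to 357 counts in KO and 659 in WT (-0.29, -0.48 to -0.10), which is 0.00269% and 0.00501% of all counts. For each chain that binds and shows the peptide, the interval held 0. *H2-Aa* had 82 counts in KO and 111 in WT (0.15, -0.27 to 0.58), *H2-Ab1* had 82 and 96 (0.36, -0.08 to 0.81), and *H2-Eb1* had 48 and 70 (0.05, -0.51 to 0.60). All 3 were below 0 under total counts, from -0.55 to -0.24. Together they had 212 and 277 counts (0.21, -0.06 to 0.47), and -0.40 under total counts.

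The tested members that serve these chains had log2 fold changes below 0. *Cd74*, the invariant chain, had 124 counts in KO and 302 in WT (-0.69, -1.01 to -0.39). It stood at 0.585 counts per count of the 3 chains in KO and at 1.09 in WT. This is a log2 difference of -0.90 (-1.30 to -0.50) that no scaling moves. Like the *Tap1* ratios, this ratio was not planned in advance. *H2-DMa*, a chain of the H2-DM exchange factor, had 7 and 25 (-1.20, -2.70 to 0.01), which passed 2-fold on an interval that holds 0. *H2-DMb1* had 14 and 39 (-0.87, -1.88 to 0.03) and shares 26.8% of its words with *H2-DMb2*, at 0 and 6. The H2-DM genes together had 21 and 70 counts (-1.14, -1.92 to -0.42).

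The other class II members and *Ciita* were under the minimum. *H2-Oa*, a chain of the H2-DM inhibitor, had 0 counts in KO and 3 in WT, *H2-Ob*, its other chain, had 0 and 7, and *Ciita*, the switch of class II transcription, had 0 and 3. Of the 20 members not tested, 15 had no count in either library and 5 had 1 to 9 counts. *H2-M5* had 1 and 2 counts, and the class I genes at 0 include *H2-T3* and the H2-M10 family, which is known from vomeronasal neurons. At these counts a difference was not detectable. *Nlrc5*, the class I counterpart of *Ciita*, had 466 counts in KO and 495 in WT (0.50, 0.32 to 0.69, and -0.10 under total counts). *H2-Ke6* had 423 and 548 (0.22, 0.03 to 0.40, and -0.38 under total counts), but 96.2% of its words recur in the overlapping gene *Gm20427*.

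Levels were compared between genes as CPM per kb, the TMM-scaled counts brought to a common depth and divided by the length of the longest coding transcript in kilobases, since the authors' FPKM rest on another length. For 69.5% of the genes checked, that length is within 2% of the summed length of all distinct annotated exons, so exons that overlap between isoforms are counted more than once. *H2-K1* is outside that 69.5%, with an FPKM length of 7271 bases, distinct annotated exons of 10612 bases and a transcript of 1619 bases. For *B2m*, which has a single model, each of these lengths was 860 bases. On the scale of CPM per kb *B2m* was highest, at 1950 in KO and 1730 in WT. *H2-Q10* followed at 1130 and 1070, *H2-K1* at 279 and 321 and *H2-D1* at 171 and 209, while by FPKM *H2-D1* (94.1 and 174) stood above *H2-K1* (50.4 and 88.1). The highest class II chain, *H2-Aa*, was at 6.76 and 6.07, and *Cd74* at 8.18 and 13.2. *Tap1* moved from 2.49 in WT, close to *Tap2* (3.05), to 8.44 in KO, above it (3.4). The plot of levels orders all 28.

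**Figure D3:**
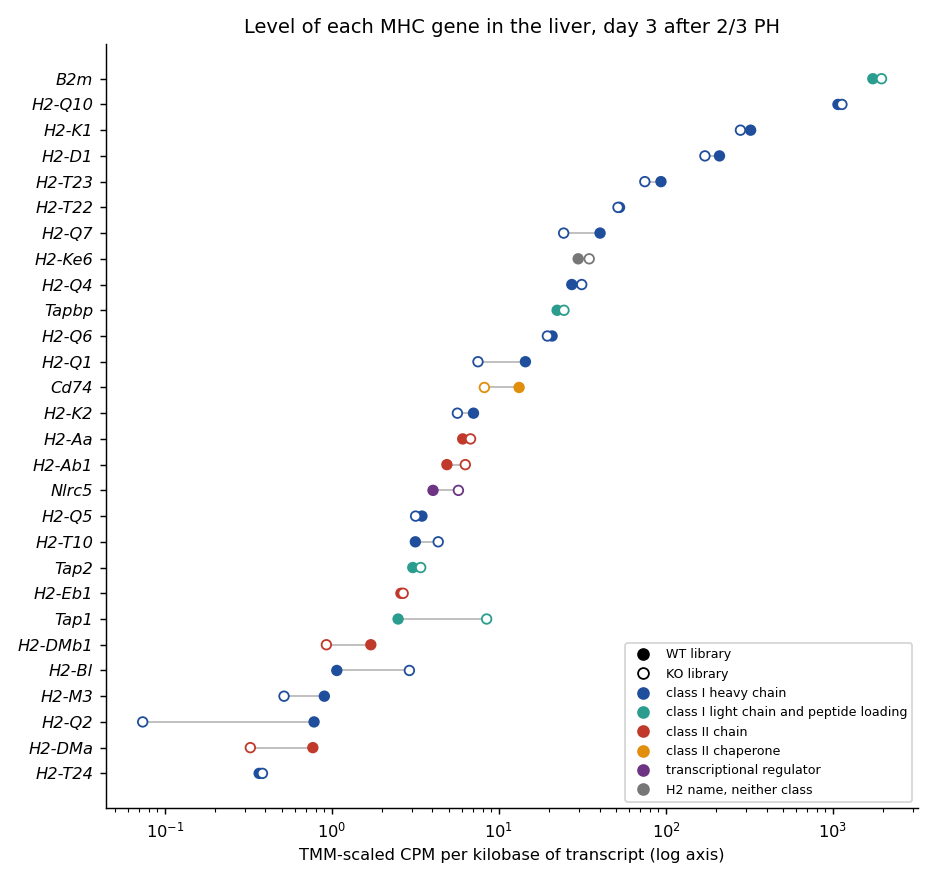
Level of the 28 tested members in CPM per kb of transcript (log axis), filled points for WT and open points for KO (1 library each), coloured by role. *B2m* and *H2-Q10* are at 1070 or more in both libraries, no class II gene is above 13.2, and the point of *H2-Q2* in KO rests on 1 count.

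The lists around the members were chosen by role, with earlier results of these data known, and are given as counts and medians. Each count past 2-fold is to be read beside the 9.46% of all tested genes that were higher and the 9.94% that were lower, or 4.6% and 26.6% under total counts. Of the 14 other genes of the class I pathway, 1 was 2-fold higher, *Hspa5* (2783 counts in KO and 1508 in WT, 1.48, and 0.87 under total counts), a chaperone of the endoplasmic reticulum, and the median was -0.03. Under total counts none of the 14 was 2-fold higher and 2 were lower. *Calr* and *Pdia3*, chaperones that hold the heavy chain during loading, had log2 fold changes of 0.27 and 0.37 (-0.33 and -0.23 under total counts), and *Canx* had -0.60. Of the 11 other genes of the class II pathway none was 2-fold higher and 1 was 2-fold lower, *Cd9* (173 and 562, -1.11), with a median of -0.70 and 8 below 0. Under total counts 7 were 2-fold lower and all 11 were below 0. The endosomal proteases *Ctsd* (1042 and 2742, -0.80) and *Ctsl* (2057 and 5030, -0.70) and the thiol reductase *Ifi30* (161 and 407, -0.74) were among the 8 below 0 under TMM. Hepatocytes also make *Ctsd* and *Ctsl*. Another endosomal protease, *Ctss*, had 126 counts in KO and 154 in WT (0.30, and -0.30 under total counts). Among the 30 tested genes that the authors' KEGG annotation places in antigen processing and presentation and that are no members, 5 were 2-fold higher and 1 lower, with a median of -0.03, and the balance turned under total counts, to 2 higher and 5 lower with a median of -0.63. Of the 100 other tested genes in the H2 region of chromosome 17, 13 were 2-fold higher and 4 lower, with a median of 0.17. Under total counts this turned as well, to 6 higher and 19 lower with a median of -0.42.

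The factors that act on MHC promoters did not differ by 2-fold. The 8 tested genes of RFX, NF-Y, CREB and EZH2 had a median of 0.01, from -0.34 for *Nfya* to 0.71 for *Rfxap*. In interferon gamma signalling, *Irf1* had 298 counts in KO and 247 in WT (0.86, 0.62 to 1.11, and 0.26 under total counts). The receptor chain *Ifngr1* had 69 and 182 (-0.80, and -1.40 under total counts). *Socs1*, an inhibitor of the pathway, had 10 counts in KO and 0 in WT, and was the 1 gene of 9 past 2-fold. Under total counts *Socs1* stayed 2-fold higher and *Ifngr1* was 2-fold lower. Interferon targets outside the MHC had higher medians than the heavy chains. Of 15 tested rows of interferon gamma targets 7 were 2-fold higher (3 under total counts) and none lower, with a median of 0.89 (0.29 under total counts), led by count by *Igtp* (347 and 227, 1.20) and *Gbp3* (179 and 77, 1.80). Of 21 type I interferon targets 15 were 2-fold higher (7 under total counts), beside 9.46% of all tested genes (4.6%), among them *Stat2* (2781 and 1931, 1.12), *Irf7* (717 and 342, 1.66) and *Oasl2* (228 and 56, 2.60), and 1 was lower (2 under total counts), *Ddx58* (73 and 350, -1.66). Their median was 1.35, and 0.76 under total counts, beside -0.17 for the class I heavy chains and 0.17 for the 4 loading genes. The difference between the lists has no replicate test.

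**Figure D4:**
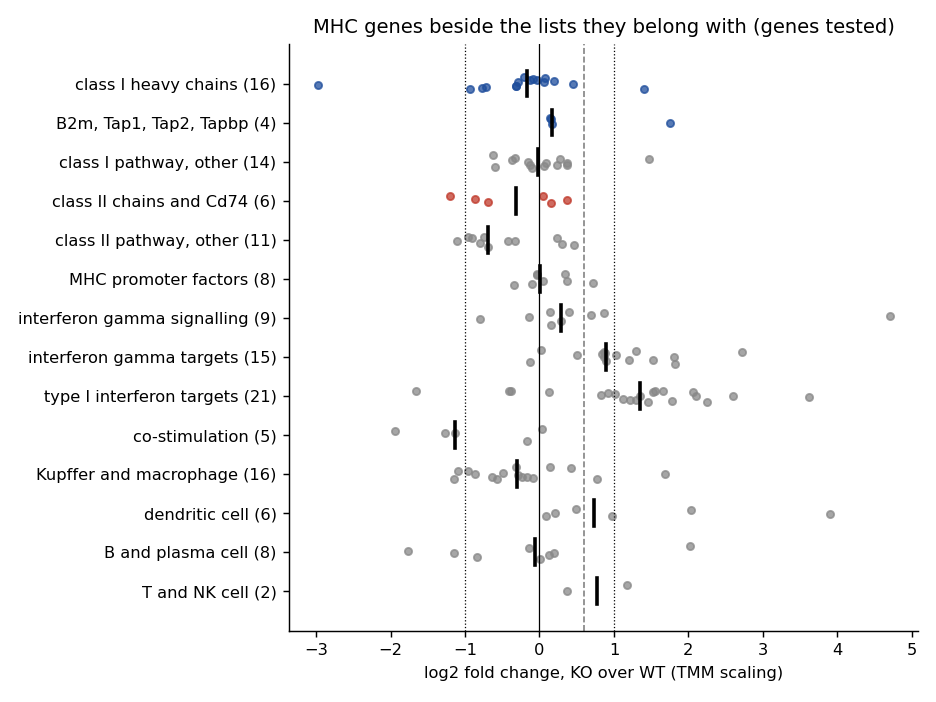
Log2 fold change of KO over WT for each tested gene (points) and the median (black bar) of the MHC members and the lists around them, with the number of genes tested in brackets. Dotted lines mark 2-fold and the dashed line marks where 0 lies under total counts. The type I interferon targets have a median of 1.35, the class I heavy chains of -0.17 and the class II members of -0.32.

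In bulk liver, fewer cells of a type and less RNA per cell cannot be told apart, and class II genes in particular depend on which immune cells are present. The hepatocyte markers summed to 672132 counts in KO and 1100611 in WT, of which *Alb* alone had 339876 and 536544, so the tissue label holds. The 16 Kupffer cell and macrophage markers summed to 2224 and 4367 counts (-0.38, -0.46 to -0.31), with 12 of 16 below 0 (14 under total counts), the scavenger receptor *Marco* (139 and 447, -1.09) and *Adgre1* (12 and 41, -1.15) past 2-fold lower, *Ccr2* (20 and 9, 1.68) past 2-fold higher, and *Clec4f*, which marks Kupffer cells, at 600 and 1108 (-0.29). Under total counts 7 of these markers were 2-fold lower, beside 26.6% of all tested genes. Dendritic cell markers summed to 250 and 198 counts (0.93, 0.65 to 1.21, and 0.33 under total counts), of which *Irf8* had 98 and 75. Of the 6 tested, *Siglech* (45 and 4, 3.89) and *Itgax* (23 and 8, 2.04) were past 2-fold higher, and *Flt3* was at 1 and 1. Under total counts 3 of the 6 were above 0 and 3 below. B cell and plasma cell markers summed to 119 and 198 (-0.14, -0.48 to 0.19), with *Cd22* (10 and 34, -1.14) and *Jchain* (4 and 22, -1.77) past 2-fold lower and *Cd79a* (12 and 4, 2.02) higher. T cell and NK cell markers summed to 21 and 33, with *Cd8b1* and *Ncr1* at 0 in both. The parts of these cells in the class II values were not tested.

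The genes by which such cells signal to T cells had few counts. Of 5 tested co-stimulation genes, none was 2-fold higher and 3 were 2-fold lower under both scalings, beside 9.94% of all tested genes (26.6% under total counts), *Icosl* (42 and 154, -1.27), *Cd86* (17 and 57, -1.13) and *Cd40* (3 and 19, -1.94). The T cell side had 4 tested genes of 11, with *Lck* (11 and 6, 1.38) past 2-fold higher and *Trbc2* (3 and 15, -1.61) past 2-fold lower, both with intervals that hold 0. Of 7 tested class I-like genes outside the H2 names, *Raet1e* (96 and 62, 1.22, and 0.62 under total counts), a stress ligand of NK cells, was 2-fold higher.

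The 6 tested neutrophil markers lay between 0.00 and 0.73, and under total counts 3 were above 0 and 3 below. The endothelial, stellate cell and cholangiocyte markers had medians of -0.42, -0.59 and 0.27, and the hepatocyte markers -0.05. Under total counts these medians were -1.01, -1.19, -0.32 and -0.66. Past 2-fold lower were 2 of 10 endothelial, 2 of 10 stellate cell and 1 of 10 hepatocyte markers, *Apob* (1517 and 17808, -2.96). Of 6 tested cholangiocyte markers 2 were 2-fold higher. Of all tested genes 9.94% were lower and 9.46% higher. Under total counts 5, 6 and 4 markers were lower, beside 26.6%.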

How the data were processed

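The authors deposited raw read counts per gene for each library, and FPKM scaled by the total count. The submitters' processing notes name HISAT2 2.0.4, StringTie and edgeR, and a human build, although the gene identifiers and coordinates are of mouse, and 33 of the 48 members have the same coordinates in GENCODE M21 (GRCm38). Fold changes were computed with edgeR 4.0.16 (R 4.3.3), intervals with scipy 1.17.1 and pandas 2.3.3 (Python 3.11.15), and size factors for an alternative with DESeq2 1.42.0. TMM factors (0.812 for KO, 1.23 for WT) were computed on genes with at least 10 counts and applied to full totals. Differences of at least 2-fold were counted, and every member with 10 counts was named. From the other lists a selection of genes was named, some of them within 2-fold. Genes that a spreadsheet had turned into dates were matched by identifier. Shared words and UTRs come from M21 transcripts, promoters and the miRNA from RefSeq, and coding sequences were aligned with MAFFT 7.526. The steps were tested on simulated data. Members and lists were chosen with earlier results of these data known. Scaling, prior count, count minimum, assumed variation and sums were varied.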

Additional observations from a re-analysis of the deposited data

How the results depend on the processing

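No paired analysis was possible because KO and WT have 1 library each, and no library could be left out. Class I members past 2-fold (2 higher and 1 lower) were 1 higher and 4 lower under total counts and under FPKM with a pseudocount of 0.1, 1 and 0 with a minimum of 50 counts, 1 and 0 by edgeR's exact test with an assumed coefficient of variation of 0.2, and 0 and 0 with 0.4. The class II count (0 higher and 1 lower) was 3 lower under total counts and FPKM, 4 with a minimum of 1 count, and 0 with a prior count of 5, a minimum of 50 counts, a counting interval without 0, or an assumed coefficient of variation of 0.1, 0.2 or 0.4. The class I median (-0.06) moved to -0.66 under both total counts and FPKM. The class II median (-0.32) moved to -0.92 and -0.91 there, and to -0.87 with a minimum of 1 count. DESeq2's size factors, the upper quartile and a prior count of 5 left each of the 28 members within its counting interval. Total counts and FPKM each changed the sign of 12 members, and no member past 2-fold turned its direction under them. Medians and sums of class I heavy chains alone were added after seeing the data. At these totals, members with few counts have wide intervals, such as H2-M3 with 8 and 21 counts (-2.18 to 0.43).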
